A study of Mus musculus with 2 samples.

Results

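The genes described are the estrogen receptor alpha gene Esr1, the genes of its partner factors Foxa1, Gata3 and Tfap2c, and 6 genes known as its targets or coregulators, Pgr, Greb1, Stc2, Myb, Xbp1 and Nrip1. They were taken by symbol, and all 10 were found among the 16906 genes of the deposited table. RNA was sequenced from luminal cells of the mouse mammary gland, enriched by fluorescence-activated cell sorting, with 1 library per group. The CKO library came from K8-CreERT2;miR-200c/141-flox/flox mice, in which tamoxifen switches on a Cre recombinase driven by the promoter of keratin 8, a luminal keratin, so that the floxed miR-200c/141 cluster is cut out. The Ctrl library came from miR-200c/141-flox/flox mice, which carry the floxed cluster but no Cre. Both groups were injected with tamoxifen, were of strain C57BL/6 and were 8 weeks old, and about 20000 cells were taken for low-input libraries. The labels put the harvest at 4 weeks after tamoxifen in one field and at 3 days in another. Only the CKO mice carry Cre, so effects of Cre itself and of the deletion cannot be told apart. The sources used here do not say how many mice were used. Tamoxifen, given to both groups, is itself a ligand of estrogen receptor alpha.

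Estrogen receptor alpha is a nuclear receptor that binds DNA at estrogen response elements once estrogen has entered the cell. FOXA1, GATA3 and AP-2 gamma, the product of Tfap2c, are factors that bind near the receptor and make chromatin accessible to it, and GATA3 is also needed to form and maintain luminal cells. In the mammary gland the receptor is carried by the hormone-sensing luminal cells, which answer estrogen by making progesterone receptor and by sending paracrine signals to their neighbours.

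The deleted microRNAs act through their seed, bases 2 to 8, which pairs with messenger RNAs. The mature sequences are given (RefSeq, GRCm38.p6, seed in capitals) because the matches sought below are the complements of these seeds. The first 2 belong to the deleted cluster on chromosome 6, and the other 3 lie on chromosome 4 and were not targeted.
miR-200c-3p: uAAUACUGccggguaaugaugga
miR-141-3p: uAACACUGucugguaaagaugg
miR-200b-3p: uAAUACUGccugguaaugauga
miR-429-3p: uAAUACUGucugguaaugccgu
miR-200a-3p: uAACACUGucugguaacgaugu
The seed of miR-200c-3p is shared by miR-200b-3p and miR-429-3p, and that of miR-141-3p by miR-200a-3p. The microRNAs themselves were not analysed here, so the extent of the deletion was not checked.

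The longest annotated 3' untranslated regions (3' UTRs) of 6 of the 10 genes hold at least 1 seed match, CAGTATT for miR-200c-3p or CAGTGTT for miR-141-3p. The same was true of 30.1% of 11153 tested genes with an annotated 3' UTR, and of 58.9% of the 3306 genes whose 3' UTR had at least 2000 bases. Of the 10 genes, only Esr1, Pgr, Nrip1 and Stc2 have 3' UTRs that long, and all of these but Esr1 hold a match. The sites shown are the only one of Pgr and the 3 in which the match is followed by an A, the longer form of a seed match. Capitals mark the match.
Pgr: gatgtcatgccCAGTATTgttttgtggaa
Foxa1: cttggctcatcCAGTGTTaatgcactttc
Stc2: cttttggcagcCAGTGTTagagaagtgga
Tfap2c: tatttctttttCAGTGTTaagataatagc
On GRCm38 the match of Pgr lies at chr9:8968460-8968466 on the plus strand, in exon 8 of 8. That of Foxa1 is at chr12:57540926-57540932 on the minus strand, in exon 2 of 2. That of Stc2 is at chr11:31358798-31358804 on the minus strand, in exon 4 of 4, and that of Tfap2c at chr2:172557779-172557785 on the plus strand, in exon 7 of 7. Nrip1 had the most matches, 1 for miR-200c-3p and 3 for miR-141-3p in 3782 bases, and Myb had 2 for miR-200c-3p. Stc2 had a second match for miR-141-3p. No match was found in the 3' UTRs of Esr1, Gata3, Greb1 and Xbp1, of 4191, 1292, 1765 and 989 bases. A match is a description of the sequence and does not show that the microRNA acts there.

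Levels are in FPKM, that is, read fragments scaled to transcript length and library size, and can be compared between genes as far as the deposited lengths hold. About 11500000 reads lay behind the CKO library and 12500000 behind the Ctrl library, as estimated from the p-values in the authors' deposited table. Intervals are 95% exact intervals of these read numbers. They cover counting error only, and may be too narrow even for that, since copies made by PCR are not independent molecules. No difference below was checked against the spread between animals. Log2 ratios are CKO over Ctrl with 0.5 FPKM added to each value. Genes with a mean of at least 1 FPKM, 11667 in all, form the comparison set and are called the genes tested.

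All but Greb1 of the 10 genes reached a mean of 1 FPKM. Of these 9, none was 1.5-fold higher in CKO, where 2.47% of the genes tested were, and none was 1.5-fold lower, where 3.13% were. At 2-fold the shares of the genes tested were 0.754% higher and 0.557% lower, and again none of the 9 was among them. The log2 ratios ran from -0.44 for Pgr to 0.20 for Esr1, with a median of -0.19 against -0.03 over all genes tested. Of the 9, 8 lay below 0, as did 54.8% of the genes tested. The counting interval lay below 0 for 6 of the 9 genes (23.6% of the genes tested) and above 0 for Esr1 alone (16.5%). Intervals narrow as read numbers rise, and these shares were not matched for read number. Of those below 0, the interval of Nrip1 ended nearest to it, at -0.01. The p-value of Nrip1 in the authors' deposited table, which compares the reads of 1 library with those of the other, was 0.0699. That is larger than an interval wholly below 0 would give, so the place of Nrip1 among the 6 rests on the source used. With 1 library per group, no test over animals was possible.

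**Figure D1:**
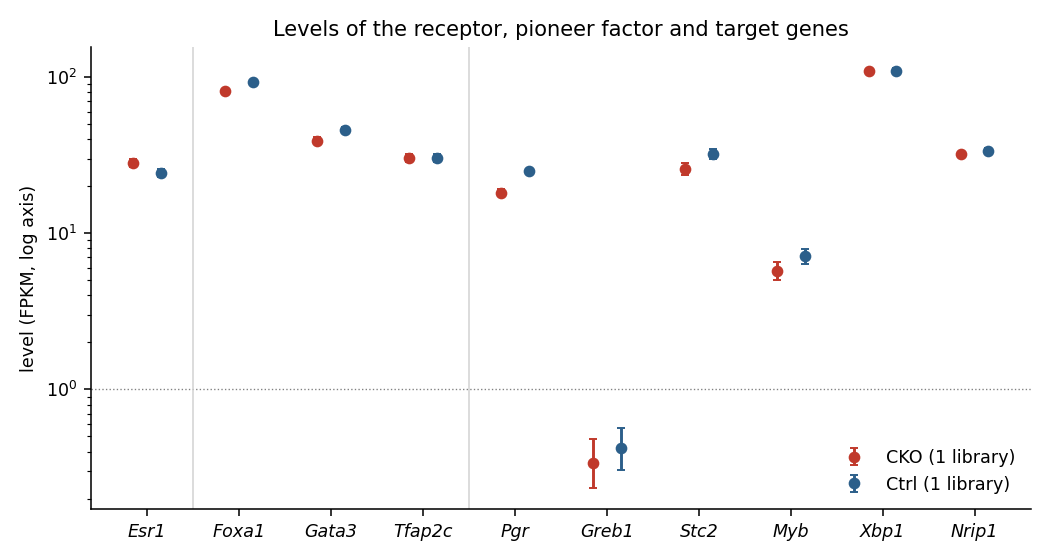
Level of each gene in FPKM on a log axis, CKO in red and Ctrl in blue, with 95% exact Poisson counting intervals; vertical lines part the receptor gene, the partner factor genes and the targets and coregulators. Esr1 sits higher in CKO (28.28 FPKM against 24.48 in Ctrl), Pgr lower (18.24 against 24.9), and Greb1 lies below 1 FPKM in both.

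Esr1 (Entrez gene 13982, chromosome 10, 4611593 to 5005614, plus strand of GRCm38) stood at 28.28 FPKM in CKO and 24.48 FPKM in Ctrl. The counting intervals of the levels, 26.7 to 29.9 FPKM in CKO and 23.1 to 25.9 FPKM in Ctrl, did not overlap. The log2 ratio of 0.20 had an interval of 0.09 to 0.32 and ranked at percentile 84.8 of the genes tested. About 1237 reads in CKO and 1170 in Ctrl correspond to these levels. The FPKM thus put the receptor transcript slightly higher in the knockout library.

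The test in the authors' deposited table does not show this difference for Esr1. Its p-value there was 0.628, which compares the reads of 1 library with those of the other, not the conditions. A read ratio that gives this p-value has a log2 of 0.03 on the side of the FPKM ratio, 0.18 below the ratio of the FPKM columns. A gap at least as large was found for 2.44% of the genes with an annotated coding transcript, and one above 0.1 for 6.88% of 11622 genes tested with a usable p-value. For each of the other 9 genes the gap was at most 0.04, the value of Greb1. The call for Esr1 therefore rests on which deposited column is used.

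RefSeq gives Esr1 start sites 98169 bases apart, and the FPKM of the gene does not say which was used. They are shown as windows from 250 bases before to 50 after each start (GRCm38.p6, plus strand). Capitals mark GGTCA, the core that an estrogen response element repeats, and the AP-2 motif GCCNNNGGC, on either strand.
Esr1 upstream start, chr10:4611739-4612038: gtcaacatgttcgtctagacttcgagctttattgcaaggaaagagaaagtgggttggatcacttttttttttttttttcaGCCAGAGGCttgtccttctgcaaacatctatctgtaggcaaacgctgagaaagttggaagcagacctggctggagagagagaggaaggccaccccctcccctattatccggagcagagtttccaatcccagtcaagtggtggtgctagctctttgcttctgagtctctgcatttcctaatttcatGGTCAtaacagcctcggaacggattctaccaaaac
Esr1 downstream start, chr10:4709908-4710207: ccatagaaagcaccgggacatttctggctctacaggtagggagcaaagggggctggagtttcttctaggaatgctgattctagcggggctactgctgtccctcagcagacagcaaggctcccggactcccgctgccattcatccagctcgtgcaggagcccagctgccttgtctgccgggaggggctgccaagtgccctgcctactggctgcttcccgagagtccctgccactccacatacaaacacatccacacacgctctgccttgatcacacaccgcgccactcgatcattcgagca
The upstream window holds 1 GGTCA and 1 AP-2 motif, and the downstream window holds neither. GGTCA occurred in 38.4% and the AP-2 motif in 25.3% of 11537 windows of the genes tested. GGTCA was also found in windows of Gata3, Stc2, Greb1, Foxa1 and Nrip1, and the AP-2 motif in that of Gata3. The forkhead motif TGTTTAC, held by 2.51% of the windows, was found in those of Myb and Foxa1. No window of the members held the full palindromic estrogen response element, held by 0.00867% of the windows, or the GATA motif AGATAA, held by 6.17%, and those of Pgr and Xbp1 held none of these motifs. GENCODE lists 4 coding transcripts of Esr1, of 2612 to 6339 bases, and the deposited length is 3815 bases. Gaps above 0.1 between the 2 deposited ratios occurred in 7.51% of genes with 2 to 4 coding transcripts, 7.93% of genes with 5 or more and 4.77% of genes with 1. The part of transcript choice in the gap of Esr1 was not tested.

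Among the partner factors, Foxa1 and Gata3 had slightly lower FPKM in CKO, and Tfap2c was level. Foxa1 (Entrez gene 15375, chromosome 12, 57540628 to 57546916) encodes the forkhead factor that opens chromatin for the receptor. It stood at 81.36 FPKM in CKO and 92.74 FPKM in Ctrl, a log2 ratio of -0.19 (interval -0.26 to -0.12). Gata3 (Entrez gene 14462, chromosome 2, 9857078 to 9890034) stood at 39.24 FPKM in CKO and 45.63 FPKM in Ctrl, a log2 ratio of -0.22 (-0.32 to -0.12). Both shifts were common in size, since 58.1% of the genes tested lay as near to 0 as Foxa1 or nearer, and 63.9% as near as Gata3. These shares, like the percentile of Esr1 and the share given for Pgr, were not matched for level. Among the 8631 genes with a mean of at least 5 FPKM, both ratios lay below the lower quartile of -0.15 and above the 5% quantile of -0.39. Tfap2c (Entrez gene 21420, chromosome 2, 172549593 to 172558622) stood at 30.33 FPKM in CKO and 30.55 FPKM in Ctrl. Its interval of -0.14 to 0.11 holds no difference.

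Paralogs of these genes were mostly scarce. Of 18 listed, 16 were in the table and 6 reached a mean of 1 FPKM, with none past 1.5-fold. The exceptions were 2 genes of the AP-2 family. Tfap2a was at 28.29 FPKM in CKO and 31.5 FPKM in Ctrl, and Tfap2b at 17.24 FPKM in CKO and 20.69 FPKM in Ctrl. Unlike that of Tfap2c, their intervals lay below 0, at -0.27 to -0.04 and -0.38 to -0.14. The second estrogen receptor gene Esr2, singled out after its values were seen, had 0.17 FPKM in CKO and 0.2 FPKM in Ctrl, about 6 reads in CKO and 8 in Ctrl. The other 4 above 1 FPKM were Nrip3, Mybl1, Nrip2 and Stc1, between 1.07 and 2.61 FPKM in both libraries.

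**Figure D2:**
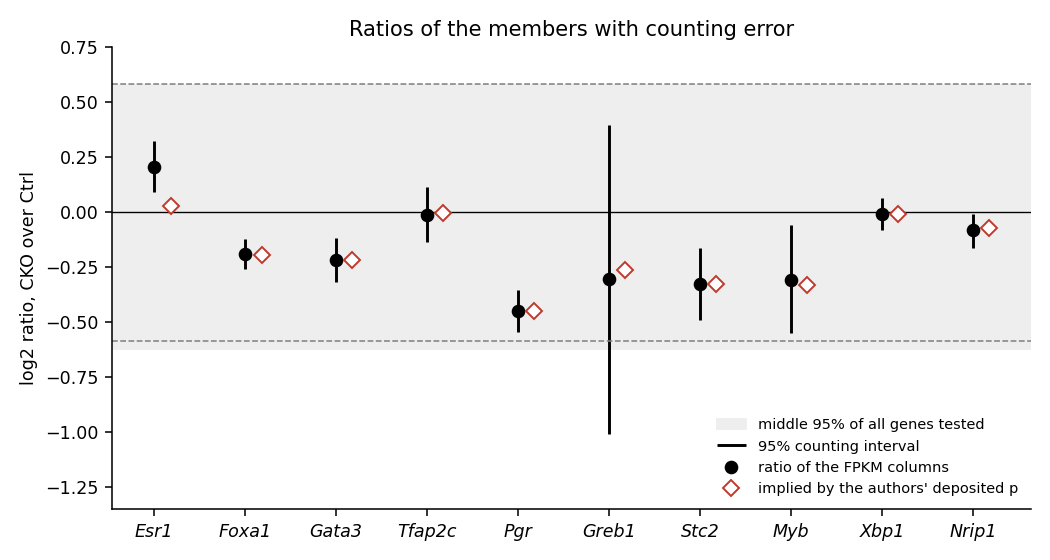
Log2 of CKO over Ctrl FPKM for each gene (black, no value added), with 95% counting intervals, beside the read ratio implied by the p-value in the authors' deposited table (open diamonds). Dashed lines mark 1.5-fold and the grey band holds the middle 95% of the genes tested (0.5 FPKM added); the diamond leaves the interval for Esr1 alone.

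Among the targets, Pgr had the lowest ratio, an order that did not hold relative to genes of like transcript length, as given below. Pgr (Entrez gene 18667, chromosome 9, 8899833 to 8968611) encodes the progesterone receptor, through which the gland answers progesterone. It stood at 18.24 FPKM in CKO and 24.9 FPKM in Ctrl, from about 1454 reads in CKO and 2168 in Ctrl. The log2 ratio was -0.44 with an interval of -0.55 to -0.35, and 89.1% of the genes tested lay nearer to 0. The deposited p-value of Pgr in the authors' deposited table, 2.12e-20, implies the same log2 read ratio as its FPKM, -0.45 in each case with no value added. The progesterone receptor transcript was thus lower in CKO on both deposited columns, though not by 1.5-fold.

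Stc2 and Myb followed Pgr. Stc2 (Entrez gene 20856, chromosome 11, 31357307 to 31370074) encodes stanniocalcin 2, a secreted glycoprotein induced by estrogen in human breast cancer cells. It stood at 25.73 FPKM in CKO and 32.29 FPKM in Ctrl, a log2 ratio of -0.32 (-0.49 to -0.16). Myb (Entrez gene 17863, chromosome 10, 21124935 to 21160984) encodes a transcription factor that estrogen releases from a transcriptional pause in human breast cancer cells. It stood at 5.76 FPKM in CKO and 7.12 FPKM in Ctrl, a log2 ratio of -0.28 (-0.55 to -0.06). Both counting intervals lay below 0, and Myb rests on 239 reads in CKO and 322 in Ctrl.

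Greb1 (Entrez gene 268527, chromosome 12, 16670615 to 16800886) encodes a receptor coactivator that is among the most strongly estrogen-induced genes of human breast cancer cells. Here it was scarce, at 0.34 FPKM in CKO and 0.42 FPKM in Ctrl, from about 32 reads in CKO and 43 in Ctrl. A difference was not detectable at this depth, since the interval ran from -1.01 to 0.40. Its deposited length of 8149 bases is the greatest of the 10.

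Xbp1 and Nrip1 were close to level. Xbp1 (Entrez gene 22433, chromosome 11, 5520659 to 5525893), a transcription factor of the unfolded protein response and a target of the receptor, had the highest level of the 10 genes. It stood at 109.31 FPKM in CKO and 109.93 FPKM in Ctrl, and the interval of -0.08 to 0.07 bounds any counting difference. Nrip1 (Entrez gene 268903, chromosome 16, 76287400 to 76373827) encodes a corepressor of the receptor that is itself induced by estrogen. It stood at 31.98 FPKM in CKO and 33.86 FPKM in Ctrl, a log2 ratio of -0.08 (-0.16 to -0.01). Of 27 genes of the unfolded protein response, in which Xbp1 acts, all reached 1 FPKM and none passed 1.5-fold, with a median of -0.05. The most abundant were Atf4, a stress-induced transcription factor gene, at 333.79 FPKM in CKO and 310.81 FPKM in Ctrl, and 2 chaperone genes. Hspa5 was at 225.2 FPKM in CKO and 257.43 FPKM in Ctrl, and Calr at 219.15 FPKM in CKO and 245.45 FPKM in Ctrl.

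The order of the levels changed among the middle genes. Xbp1, Foxa1, Gata3 and Nrip1 were the highest in that order in both libraries, and Myb and Greb1 the lowest. In CKO, Nrip1 was followed by Tfap2c, Esr1, Stc2 and Pgr, and the counting intervals of neighbours overlapped from Nrip1 to Stc2 but not between Stc2 and Pgr. In Ctrl, Nrip1 was followed by Stc2, Tfap2c, Pgr and Esr1, and the intervals of Pgr and Esr1 overlapped, as did those from Nrip1 to Tfap2c. This order rests on the deposited lengths. At the length of the longest annotated coding transcript, 3940 bases for Stc2 and 6339 for Esr1, Stc2 would stand at 11.7 FPKM in CKO and 14.7 FPKM in Ctrl, and Esr1 at 17.0 FPKM in CKO and 14.7 FPKM in Ctrl. Pgr, Esr1 and Stc2 would then follow each other in that order in both libraries.

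Levels were also set against Esr1 within each library, which removes any scaling between the libraries. Since 84.8% of the genes tested had a lower ratio than Esr1, a lower value on this scale is common, and it was found for all 9 other genes by FPKM. Pgr had 0.645 times the level of Esr1 in CKO and 1.02 times in Ctrl, a log2 change of -0.66 (-0.81 to -0.51). Stc2 had 0.91 times the level of Esr1 in CKO and 1.32 times in Ctrl, a log2 change of -0.54 (-0.73 to -0.34). For Myb the change was -0.51 (-0.78 to -0.25), for Nrip1 -0.29 (-0.43 to -0.15) and for Xbp1 -0.22 (-0.35 to -0.08). Among the partner factors it was -0.40 for Foxa1, -0.43 for Gata3 and -0.22 for Tfap2c. That of Greb1, -0.51, had an interval of -1.18 to 0.16 that holds no difference. All these changes share the level of Esr1. With the ratios implied by the deposited p-values, which do not give the side on which Esr1 lies, the change was -0.48 for Pgr with Esr1 higher in CKO and -0.42 with Esr1 lower in CKO. In the same order it was -0.35 and -0.30 for Stc2, -0.36 and -0.30 for Myb, and -0.10 and -0.04 for Nrip1. For Foxa1 it was -0.22 and -0.17, for Gata3 -0.24 and -0.19, and for Greb1 -0.29 and -0.24. It was -0.03 and 0.02 for Tfap2c and -0.04 and 0.02 for Xbp1, which both thus changed sign.

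Ratios in this table moved with transcript length. Among the decile of the genes tested with the shortest transcripts, 147 to 1131 bases, the median log2 ratio was 0.11, and in the decile with the longest, from 6003 bases, it was -0.20. Pgr, Nrip1 and Greb1 have lengths in the range of the longest decile. Relative to the median of genes of like length, a setting chosen after the data were seen, Pgr was at -0.24, Nrip1 at 0.12 and Greb1 at 0.07. Tfap2c was at 0.01 and Xbp1 at -0.03, so Nrip1, Greb1 and Tfap2c changed sign. Stc2, deposited with 1793 bases although its 1 annotated coding transcript has 3940, was at -0.36 on that scale, Esr1 at 0.25, Myb at -0.23, Gata3 at -0.20 and Foxa1 at -0.17. Set against genes of its annotated length instead, also a setting chosen after the data were seen, Stc2 was at -0.24, level with Pgr. In the same setting Esr1, whose longest annotated coding transcript has 6339 bases, was at 0.40. The part of length in the ratio of Pgr was not tested further.

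**Figure D3:**
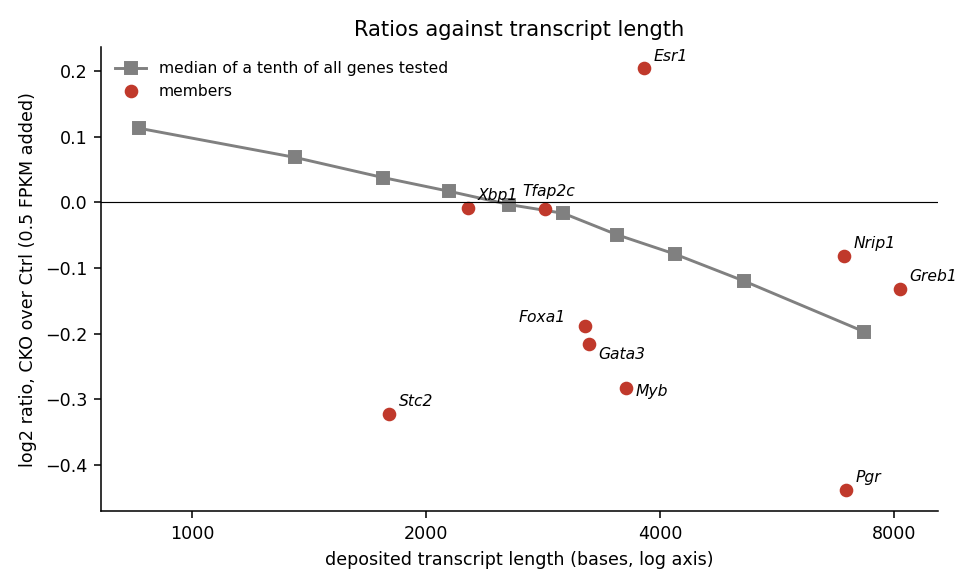
Log2 ratio (CKO over Ctrl, 0.5 FPKM added) against the deposited transcript length on a log axis, with the 10 genes in red and the median of each length decile of the genes tested in grey. The grey line falls with length, to -0.20 in the longest decile, where Pgr sits below it and Nrip1 and Greb1 above it; Stc2 lies below the line at its length.

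**Figure D4:**
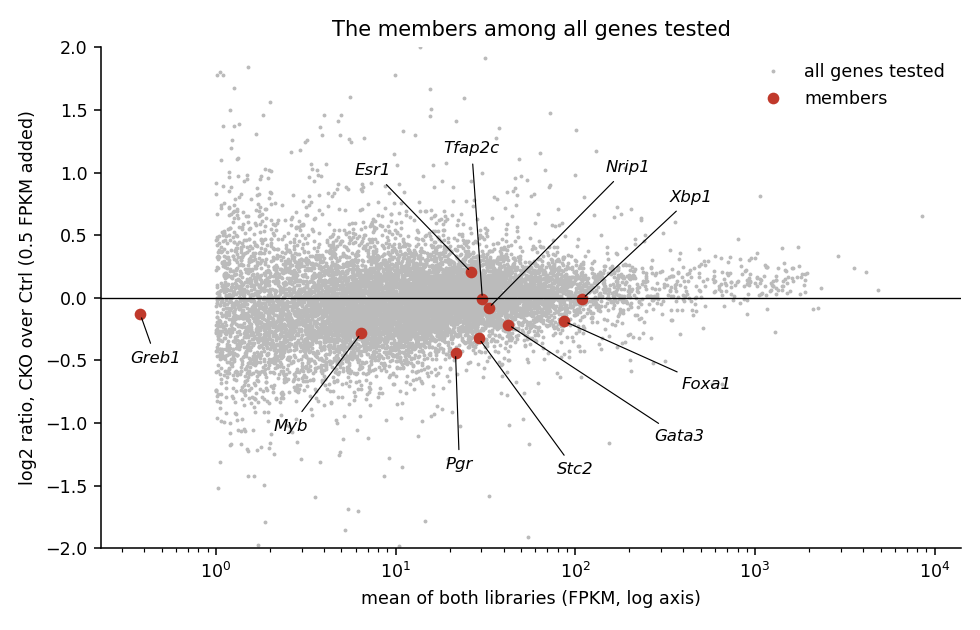
Log2 ratio (CKO over Ctrl, 0.5 FPKM added) against the mean level on a log axis, for the genes tested in grey and the 10 genes in red; 37 genes lie outside the ratio range drawn. The members lie inside the cloud, Pgr near its lower side and Esr1 in its upper part, except Greb1. With a mean of 0.38 FPKM, Greb1 lies to the left of the cloud.

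Other targets of the receptor lay on both sides of 0. Of 36 listed genes, 27 reached a mean of 1 FPKM, and 2 were 1.5-fold higher in CKO and 1 lower. Their median log2 ratio was 0.10, with 18 above 0 and 9 below, where 44.8% of the genes tested lay above 0. The counting interval lay above 0 for 10 of the 27 and below 0 for 4. The higher ones were Ccnd1, the cyclin D1 gene named in the study's title, at 19.74 FPKM in CKO and 11.95 FPKM in Ctrl, and the survival gene Bcl2, at 2.81 FPKM in CKO and 1.46 FPKM in Ctrl. The lower one was Calca, the calcitonin gene, at 6.29 FPKM in CKO and 22.82 FPKM in Ctrl. For Bcl2 the deposited p-value implies a log2 ratio of 0.45, under 1.5-fold. The most abundant targets were the keratin gene Krt19, with a log2 ratio of 0.28, the protease gene Ctsd, with -0.03, and the stress-response gene Ier3, with 0.13.

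Targets of the progesterone receptor went both ways beside the lower Pgr. Of 12 listed genes, 6 of them also on the list of estrogen receptor targets, 11 reached 1 FPKM. Ccnd1 and Id4, the gene of an inhibitor of helix-loop-helix factors, were 1.5-fold higher in CKO, Calca was lower, and the median was 0.04. Id4 was at 2.23 FPKM in CKO and 1.31 FPKM in Ctrl, from about 42 reads in CKO and 27 in Ctrl, and its log2 ratio of 0.59 was just past the limit of 0.58. The most abundant were the kinase gene Sgk1, with a log2 ratio of 0.21, Areg, the gene of the paracrine ligand amphiregulin, with 0.20, and the clock gene Per1, with 0.04.

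Of 30 coregulator genes, whose products the receptor recruits or is silenced by, all reached 1 FPKM and none passed 1.5-fold. Their median log2 ratio was -0.09, and 0.01 relative to genes of like length. The most abundant were the helicase genes Ddx5 and Ddx17, with log2 ratios of 0.01 and -0.18, and the repressor gene Phb2, with 0.19. The 3 steroid receptor coactivator genes, singled out after their values were seen, had log2 ratios of -0.36 for Ncoa1, -0.44 for Ncoa2 and -0.39 for Ncoa3, each from a transcript of at least 6286 bases. Relative to genes of like length these were -0.16 for Ncoa1, -0.24 for Ncoa2 and -0.19 for Ncoa3.

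**Figure D5:**
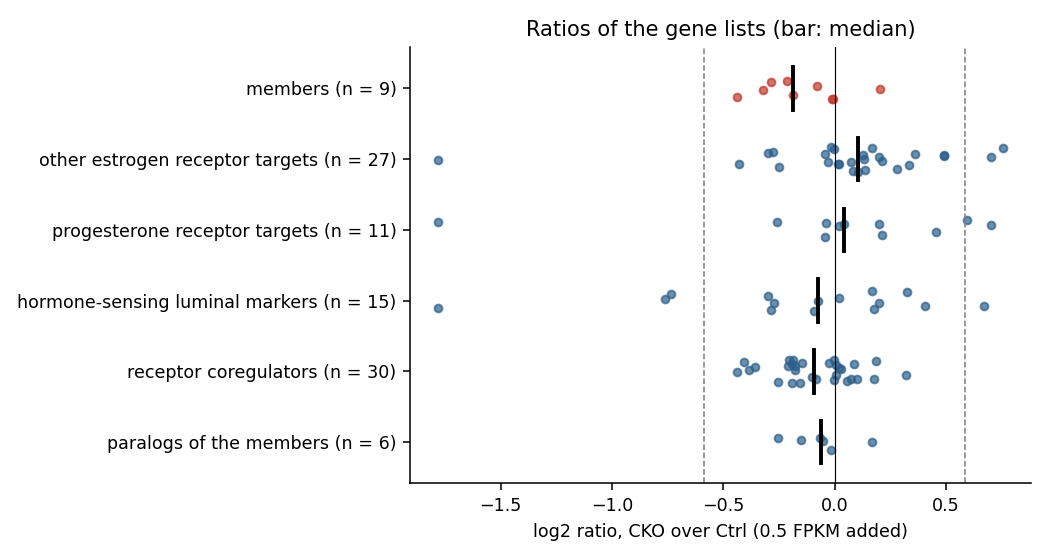
Log2 ratio (CKO over Ctrl, 0.5 FPKM added) of each gene with a mean of at least 1 FPKM, by list, with the median as a black bar and 1.5-fold as dashed lines. The members (red) have a median of -0.19, the other estrogen receptor targets one of 0.10, and Calca is the leftmost point of each of 3 lists.

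The libraries carried the markers of luminal cells, and markers of hormone-sensing cells went both ways. Of 11 pan-luminal markers, 1 was 1.5-fold higher in CKO and none lower, with a median log2 ratio of 0.13 and a summed level of 21592.9 FPKM in CKO and 16937.21 FPKM in Ctrl. The one past 1.5-fold was the most abundant, the luminal keratin gene Krt18, at 10398.36 FPKM in CKO and 6606.79 FPKM in Ctrl. Its partner Krt8 was at 4476.23 FPKM in CKO and 3871.08 FPKM in Ctrl, and the epithelial surface gene Epcam at 1232.98 FPKM in CKO and 1189.5 FPKM in Ctrl. Of 16 markers of hormone-sensing cells, 6 of them also on the list of estrogen receptor targets, 15 reached 1 FPKM. Ly6a, a surface marker gene, was 1.5-fold higher in CKO, Prom1, a membrane glycoprotein gene, Esrrb, an orphan receptor gene, and Calca were lower, and the median was -0.07. Relative to genes of like length Ly6a was at 0.56, under 1.5-fold. Their summed level was 3364.26 FPKM in CKO and 3246.74 FPKM in Ctrl, with Ptn, S100a6 and Areg the most abundant. In bulk RNA, a changed share of hormone-sensing cells and a changed amount of receptor or target RNA per cell cannot be told apart.

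Markers of basal cells were higher in CKO, with 7 of the 9 that reached 1 FPKM past 1.5-fold and 1, Trp63, lower. The summed level of all 12 listed was 294.58 FPKM in CKO and 161.82 FPKM in Ctrl, with Krt14 at 90.79 FPKM in CKO and 44.49 FPKM in Ctrl and Acta2 at 66.72 FPKM in CKO and 33.68 FPKM in Ctrl. Summed levels were 56.63 FPKM in CKO and 36.53 FPKM in Ctrl for myeloid markers, 43.12 FPKM in CKO and 40.75 FPKM in Ctrl for fibroblast markers, and 36.49 FPKM in CKO and 34.79 FPKM in Ctrl for endothelial markers. Much of the myeloid sum was Cd74, at 34.79 FPKM in CKO and 17.98 FPKM in Ctrl. Much of the fibroblast sum was Dcn, at 30.74 FPKM in CKO and 25.57 FPKM in Ctrl. Of 7 myeloid markers that reached 1 FPKM, 2 were 1.5-fold higher in CKO and 1 lower. Of 4 such fibroblast markers none passed 1.5-fold, with 2 above 0 and 2 below. Of 7 endothelial markers, 1 was lower and none higher. Among the genes tested, 2.47% were higher and 3.13% lower. Lymphocyte markers summed to 1.33 FPKM in CKO and 1.74 FPKM in Ctrl. The lymphocyte gene Cd3e was at the floor of the table in CKO. Adipocyte markers, of which 4 of 6 were in the table, summed to 44.93 FPKM in CKO and 35.1 FPKM in Ctrl, and erythroid markers, 3 of 5, to 8.64 FPKM in CKO and 7.95 FPKM in Ctrl. Nearly all of the adipocyte sum was Fabp4, at 44.19 FPKM in CKO and 33.36 FPKM in Ctrl. The other adipocyte marker that reached 1 FPKM, Pparg, was 1.5-fold lower in CKO. The part of these cells in the ratios of Pgr, Stc2 and the partner factors was not tested.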

How the data were processed

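The CKO and Ctrl libraries were compared, 1 per group. The submitters' processing notes name HISAT, Bowtie2, RSEM and mm10, without versions. The deposited values are FPKM, identified from the values since the file headers give no unit. Multiplied by length in kilobases they summed to 999909 in CKO and 999609 in Ctrl. They are rounded, and genes without reads are listed at 0.01. The deposited log2 fold change names CKO over Ctrl, per the file headers, and equals the log2 ratio of the FPKM columns. The deposited p-value and false discovery rate compare the 2 libraries. The length column is in bases.

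Read numbers were estimated here. P-values of 229 genes listed at the floor in 1 library all gave whole numbers of reads within 0.01 for a CKO share of 0.4779. A fit to 10335 genes gave the totals, with a median absolute difference of 0.0581 in log10 p. Intervals of ratios are exact (Clopper-Pearson) conditional binomial ones, computed with no value added. The interval of a change relative to Esr1 uses the normal approximation to the log of read numbers. No test over samples was run. P-values of the reads of 1 library against those of the other were computed to fit the deposited ones, and none of these is reported. The procedure was tested on simulated data.

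The members and gene lists were chosen with earlier results of these data known. Named genes were all 10 members, genes of the pathway and hormone-sensing lists that passed 1.5-fold or were among the 3 most abundant, and paralogs of at least 1 FPKM, with exceptions said in place. The other marker lists are given by sums, most with counts past 1.5-fold, and only some of their markers are named. With 2 libraries, likeness of pattern has no measure, so no gene was named for it. Coordinates and 3' UTRs (longest annotated, at least 30 bases) are from GENCODE M21 on GRCm38, and promoter and microRNA sequences from RefSeq. Both match the mm10 of the notes. Motifs were sought on both strands, and 9 members had a promoter window. Python 3.11.15, NumPy 2.4.6, SciPy 1.17.1 and pandas 2.3.3 were used. Alternatives changed the added value, scaling, length division, minimum, fold and source of the ratio.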

Additional observations from a re-analysis of the deposited data

How the results depend on the processing

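No member passed 1.5-fold in either direction under any of the alternatives run. Among these alternatives, the Esr1 log2 ratio moved beyond its counting error when taken from the deposited p-value, to 0.03 (0.0285). The Pgr log2 ratio did so relative to genes of like transcript length, a setting chosen after the data were seen, at -0.24 (-0.2415). No other of these alternatives moved either gene beyond its counting error. Over 9 alternatives each, 10 for Stc2, the log2 ratio ranged from 0.03 to 0.25 for Esr1 and from -0.45 to -0.24 for Pgr. It ranged from -0.36 to -0.24 for Stc2 and from -0.33 to -0.23 for Myb. The ratios of Foxa1 and Gata3 also kept their sign, and those of Tfap2c, Xbp1, Nrip1 and Greb1 changed it under at least 1 alternative. For Esr1 the length of its longest annotated coding transcript was not among these alternatives. Set against genes of that length, Esr1 was at 0.40, above its counting interval of 0.09 to 0.32. The scalings shifted all ratios by at most 0.03. Among all genes tested, the minimum and the fold moved the counts: 495 were higher and 634 lower in CKO with no minimum, 144 and 116 with a minimum of 5 FPKM, and 88 and 65 at 2-fold, against 288 and 365 as reported. With no value added 550 were lower, and with 1 FPKM added 232. Relative to genes of like length, the count of hormone-sensing markers higher in CKO went to 0, against 1 as reported, and that of progesterone receptor targets to 1, against 2. No paired analysis was possible because each group has 1 library, and for the same reason no library could be left out. Depth limits Greb1, Id4, the alveolar markers Wap and Csn2, and the paralogs below 1 FPKM, where an interval spans a ratio of 1 or rests on few reads.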

Other observations

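Chaperones and kinases that hold the receptor ready for its ligand or phosphorylate it lay on both sides of 0. Of 15 listed genes, 14 reached a mean of 1 FPKM, none passed 1.5-fold, and the median log2 ratio was 0.03. The counting interval lay above 0 for 4 and below 0 for 2, the receptor chaperone gene Fkbp4 at -0.23 (-0.34 to -0.13) and the kinase gene Pik3ca at -0.23 (-0.37 to -0.11), both named after their values were seen. The chaperone genes Hsp90ab1 and Hsp90aa1 were at 919.06 and 226.25 FPKM in CKO, against 901.61 and 217.42 FPKM in Ctrl. The kinase gene Akt1, the third most abundant, was at 115.87 FPKM in CKO and 97.34 FPKM in Ctrl, a log2 ratio of 0.25 (interval 0.18 to 0.32).

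Luminal progenitor and alveolar markers, all 12 in the table, had 0 genes past 1.5-fold higher in CKO and 3 lower, Trf, Wap and Csn2, with a median log2 ratio of -0.02. Among the genes tested, 2.47% were higher and 3.13% lower. Wap rests on about 5 reads in CKO and 49 in Ctrl, and Csn2 on about 19 in CKO and 55 in Ctrl. Their summed level was 4357.96 FPKM in CKO and 4228.89 FPKM in Ctrl.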
